A study of Mus musculus with 2 samples.

Results

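Histone H3 monomethylated at lysine 4 (H3K4me1) was described at 9 mouse genes of threonine, serine and one-carbon metabolism, out of 21531 protein-coding genes placed on the same genome build. The genes were picked by name for their place in the pathway, with earlier results of these data known: Tdh, Gldc, Shmt1, Shmt2, Mthfd1, Mthfd2, Phgdh, Psat1 and Psph. The study mapped H3K4me1 with ChIP-seq, in which DNA bound by an antibody against the mark is sequenced, in 2 biological replicates of E14TG2a.4, a male embryonic stem (ES) cell line of strain 129/Ola labelled as embryonic. Both replicates come from 1 line and 1 donor, neither carries a labelled treatment or added allele, and no control library was analysed here. The data are lists of peaks, intervals where the authors' caller found enrichment, and they show where the mark was called and how far it extended, not how much RNA the genes made.

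Serine is made from a glycolytic intermediate by Phgdh, Psat1 and Psph in turn. Serine hydroxymethyltransferases pass a carbon from serine to folate and leave glycine, the glycine cleavage system takes a further carbon from glycine, and the Mthfd enzymes interconvert the folate-bound forms used for purines and thymidylate. Mouse ES cells are known for high threonine dehydrogenase and for depending on threonine in their medium, which Tdh and its partner Gcat turn into glycine and acetyl-CoA. H3K4me1 is known to mark enhancers and the flanks of active promoters, whose centres usually carry trimethylated lysine 4 instead.

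All 9 genes carried H3K4me1 near their start, but over very different extents. A peak that the authors kept as replicated lay within 2 kb of the transcription start site (TSS, taken as the 5′ end of the gene record) in 9 of 9 genes, against 72.8% of all genes. In the 20 kb on each side of the TSS, called the TSS window here, peaks covered between 11.9% of the bases at Shmt1 and 76.3% at Shmt2 (means of 2 replicates). The median over the 9 genes was 28.5% in replicate 1 and 25.7% in replicate 2, or 26.3% ± 2.02 (SD, n = 2 for this and every later mean), against 13.99% and 13.66%, or 13.8% ± 0.232, over all genes. Of the 9, 8 lay above the all-gene median and Shmt1 lay below it. Against the 15673 genes that had a peak within 2 kb, whose median was 22.7%, 6 of the 9 lay above and Shmt1, Mthfd2 and Phgdh below.

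The bases of the gene record, from its first to its last annotated base, gave a like picture. The median coverage of the record over the 9 genes was 24.4% in replicate 1 and 21.4% in replicate 2, against 12.4% and 12.2% over all genes. The lowest record was that of Phgdh, at 9.57%, and the highest that of Shmt2, at 92.1%. Gene records and TSS windows overlap, so they are not separate evidence. With 1 group of cells there was no comparison between conditions, and no p-value was computed, because genes are not replicates. The lists hold no read counts, so the depth of the libraries is unknown.

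**Figure D1:**
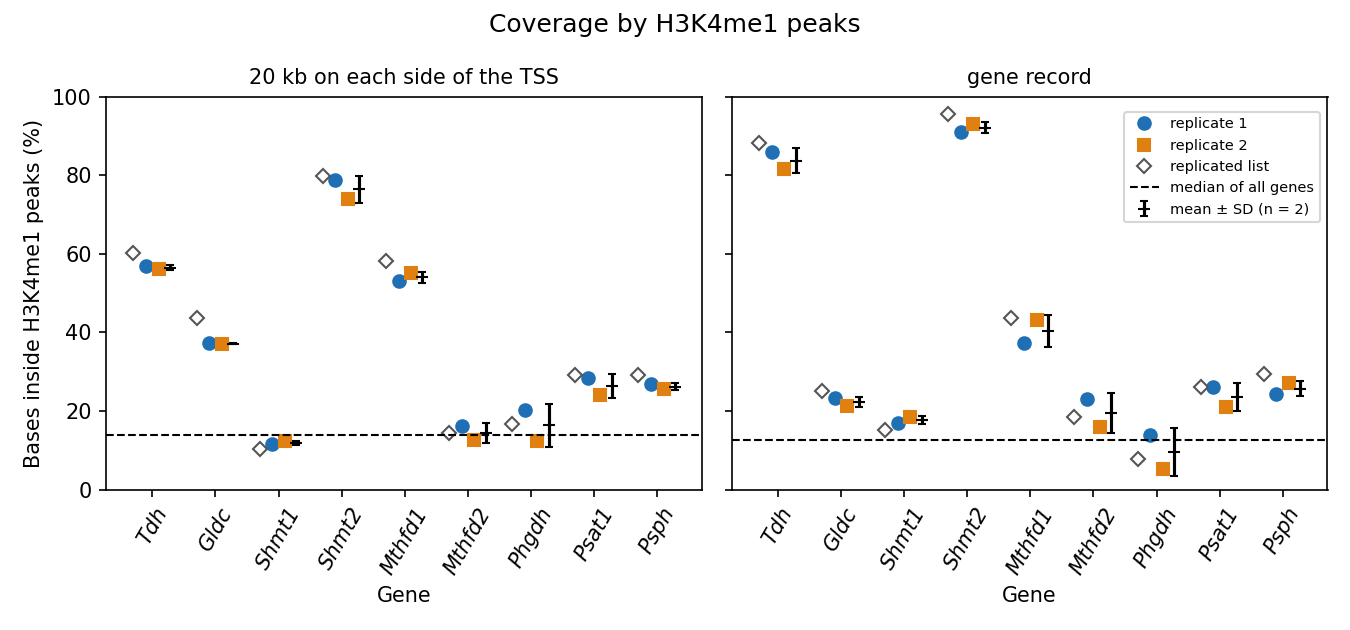
Percent of bases covered by H3K4me1 peaks at each of the 9 genes, in the window of 20 kb on each side of the TSS (left) and in the gene record (right). Circles and squares are the replicates, diamonds the replicated list, bars the mean ± SD of the replicates and dashed lines the median of all genes. Shmt2 stands highest in both measures, and the replicates differ most at Phgdh, with 20.2% and 12.5% in the TSS window.

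The replicates agreed closely across all genes, with a Spearman correlation of 0.990 between their TSS window coverages over 21531 genes, which share 2 libraries and are not independent. The median difference between the replicates was 1.97 percentage points over the 9 genes and 1.37 over all genes. In the order Shmt2, Tdh, Mthfd1, Gldc, Psat1, Psph, Phgdh, Mthfd2 and Shmt1 the replicate values of neighbours overlapped only between Psat1 and Psph and between Phgdh and Mthfd2. Parts of this order changed with other settings, as given below. Marker genes fitted the label as sets, not gene by gene. A peak within 2 kb was found in 8 of 8 ES cell genes (Pou5f1, Nanog, Sox2, Klf4, Zfp42, Tfcp2l1, Sall4 and Dppa3), against 72.8% of all genes. Their median TSS window coverage was 51.9% (32.2% to 72.7%). Fibroblasts can serve as feeder cells for ES lines. Of 8 fibroblast genes (Col1a1, Col1a2, Col3a1, Dcn, Lum, Pdgfrb, Thy1 and Postn), 4 had such a peak. Median coverage of the 8 was 3.14% (0% to 39.8%), with Col3a1, Dcn and Lum at 0%, so the ranges of the sets overlapped.

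The sequence just before the start shows where replicated peaks ended at some of the genes. The 250 bases before the TSS are given for 5 genes, 5′ to 3′ on the coding strand, from the RefSeq promoter table of GRCm38.p6; capitals mark bases inside a replicated peak. All 5 genes lie on the minus strand: Gldc is at chr19:30175442-30175691, Shmt2 at chr10:127522445-127522694, Shmt1 at chr11:60811266-60811515, Phgdh at chr3:98339970-98340219 and Psat1 at chr19:15925060-15925309. These were chosen because in 4 genes the edge of a peak falls inside the stretch and in Shmt1 no base of it is covered. The choice sets what is seen, so the sequences illustrate these 5 genes and not the whole set.
Gldc: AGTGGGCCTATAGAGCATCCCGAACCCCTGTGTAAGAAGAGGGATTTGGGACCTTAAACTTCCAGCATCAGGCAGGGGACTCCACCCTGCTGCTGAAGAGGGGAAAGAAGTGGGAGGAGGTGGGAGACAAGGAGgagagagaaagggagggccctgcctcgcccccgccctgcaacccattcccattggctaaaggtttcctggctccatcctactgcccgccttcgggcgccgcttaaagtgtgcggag
Shmt2: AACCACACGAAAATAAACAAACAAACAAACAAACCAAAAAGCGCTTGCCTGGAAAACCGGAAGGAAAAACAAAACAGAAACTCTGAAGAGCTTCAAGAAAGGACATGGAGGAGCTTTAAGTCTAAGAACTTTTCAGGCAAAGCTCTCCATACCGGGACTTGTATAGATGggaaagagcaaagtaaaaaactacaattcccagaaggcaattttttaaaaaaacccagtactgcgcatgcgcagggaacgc
Shmt1: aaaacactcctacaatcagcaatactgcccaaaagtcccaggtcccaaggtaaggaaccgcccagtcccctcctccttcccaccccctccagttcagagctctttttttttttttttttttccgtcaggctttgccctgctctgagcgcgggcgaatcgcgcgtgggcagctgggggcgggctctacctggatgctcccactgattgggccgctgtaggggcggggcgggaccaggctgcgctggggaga
Phgdh: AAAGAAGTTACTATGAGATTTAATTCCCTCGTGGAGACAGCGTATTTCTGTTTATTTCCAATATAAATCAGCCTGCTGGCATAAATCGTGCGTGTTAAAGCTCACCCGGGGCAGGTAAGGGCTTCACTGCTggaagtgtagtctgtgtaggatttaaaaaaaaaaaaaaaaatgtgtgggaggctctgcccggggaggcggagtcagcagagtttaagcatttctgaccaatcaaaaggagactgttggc
Psat1: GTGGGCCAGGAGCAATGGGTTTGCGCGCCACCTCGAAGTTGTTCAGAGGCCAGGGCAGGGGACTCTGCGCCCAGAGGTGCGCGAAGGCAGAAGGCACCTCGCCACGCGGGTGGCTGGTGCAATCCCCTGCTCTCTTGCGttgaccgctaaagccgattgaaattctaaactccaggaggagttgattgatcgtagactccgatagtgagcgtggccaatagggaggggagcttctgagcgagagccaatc

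At Gldc, Shmt2, Phgdh and Psat1 the capitals ended before the TSS and left the last bases in lower case. The peak held 134 of 250 bases at Gldc, 169 at Shmt2, 131 at Phgdh and 139 at Psat1, and 0 at Shmt1. The edge itself varied between replicates. Over the 300 bases that the table gives, including 50 past the start, peaks covered 58.3% at Shmt2 in replicate 1 and 0% in replicate 2, and 46% and 0% at Phgdh. At Gldc the values were 44% and 34.3%, and at Psat1 47% and 19.3%. Shmt1 and Psph had no covered base in either replicate.

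Promoter sequences were found for 8 of the 9 genes, all but Tdh. Their CpG content differed: the observed to expected CpG ratio over 300 bases was 0.956 at Shmt2, 0.907 at Psph, 0.749 at the upstream start of Psat1, 0.697 at Phgdh, 0.646 at Mthfd2, 0.641 at Mthfd1, 0.618 at Shmt1 and 0.389 at Gldc, against a median of 0.384 over 32851 promoters. Psat1 has a second listed start with 0.965. All 8 lay above the median, Gldc barely.

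A set of 5 short motifs was searched on both strands of the 250 bases before each start. CCAAT, bound by NF-Y, was found in 7 of the 8 genes and in 33.8% of all promoters, with Shmt2 as the exception. GGGCGG, the GC box bound by SP factors, was found in 5 of 8 and in 32.7% of all promoters. At Psat1 it was found only before the second listed start. GCATGCGC, part of the site bound by NRF1, was found only at Shmt2 of the 8, and in 2.26% of all promoters. The 2 matches there, in the last 19 bases before the TSS, overlap and are the 2 strands of a single palindrome. CACGTG, the E-box of MYC-type factors, was in 0 of 8 genes and 6.02% of promoters, and TGATGNAA, where N is any base, the ATF4 element of the amino acid response, in 0 of 8 and 3.45%. Of the 24 matches in all, with that palindrome counted on both strands, 23 lay outside the replicated peaks. Much of the searched sequence lay outside them too. Peaks held from 0 (Shmt1, Psph and the second start of Psat1) to 169 (Shmt2) of the 250 bases, at the end away from the TSS. Whether matches avoided peaks was not tested. The match inside a peak was a CCAAT of Phgdh beginning 193 bases before the TSS. A match is only a run of letters, and no binding was measured.

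Seen as an average over the 9 genes, the mark was low near the start and high on both sides. In bins of 100 bp the 9 genes were covered to 23.6% at the TSS in replicate 1 and 14.1% in replicate 2, against 20.0% and 15.4% over all genes. Upstream the highest bin reached 82.2% and 79.0% in the 9 genes, against 39.3% and 34.0% over all genes. Downstream it reached 83.8% and 74.2%, against 45.5% and 40.8%. These highest bins lay at different distances in the 9 genes and in all genes, and an average of few genes is uneven. At the same distance the gap was smaller. In the bin that starts 500 bp upstream the 9 genes had 59.2% and 62.8%, against 39.3% and 33.6%. In that starting 1100 bp downstream they had 65.4% and 66.0%, against 45.5% and 40.8%. The 9 genes thus lay near all genes at the TSS itself and above them on both sides of it, where all genes include 5858 with no replicated peak within 2 kb. In 7 of 9 genes the TSS was uncovered and replicated peaks lay within 2 kb on both sides, against 43.2% of all genes. In the other 2, Tdh and Mthfd1, the TSS base lay inside a replicated peak, against 18.9% of all genes.

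**Figure D2:**
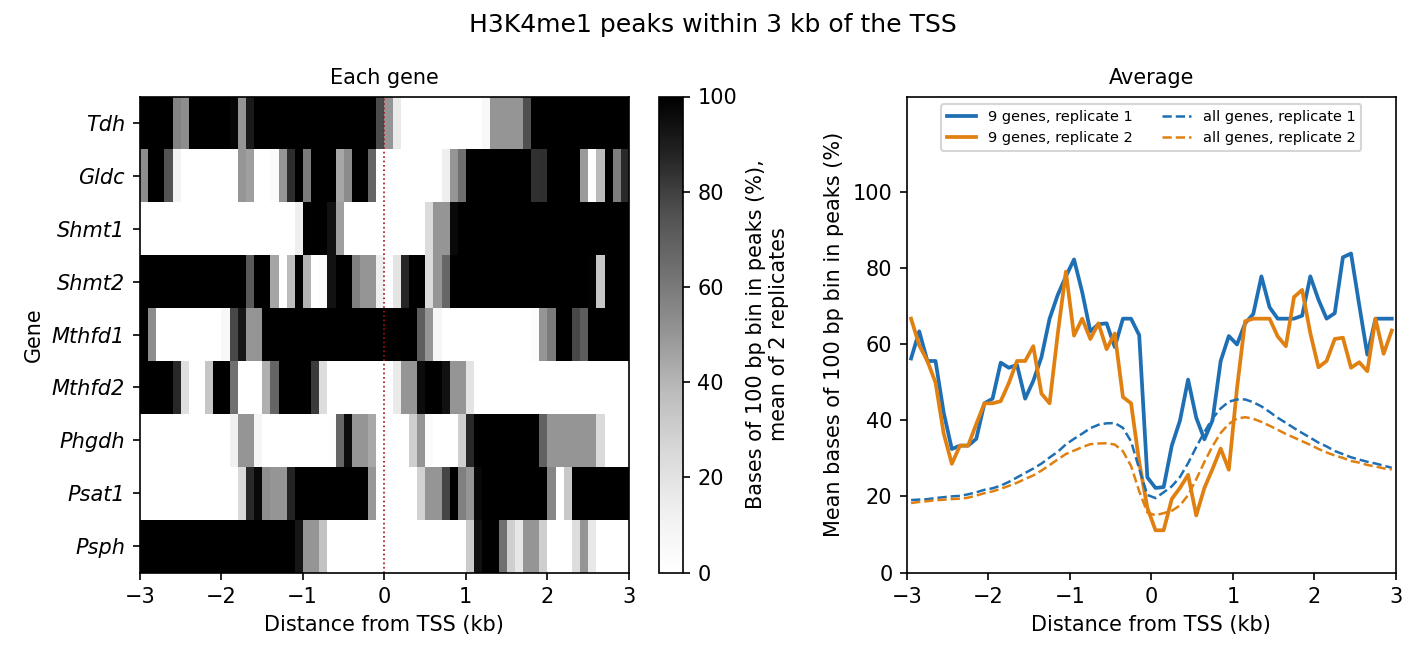
Percent of bases covered by peaks in 100 bp bins within 3 kb of the TSS, by distance from the TSS in kb: left, shading for each gene (mean of the replicates); right, the average of the 9 genes (solid) and of all genes (dashed) in each replicate. The 9 genes are near all genes at the TSS, at 23.6% against 20.0% in replicate 1. Their highest upstream bin there reaches 82.2% against 39.3%, at a different distance. In the bin that starts 500 bp upstream they have 59.2% against 39.3%.

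Neither exception held in every view. At Tdh the TSS was covered in replicate 1, while in replicate 2 the nearest peak ended 48 bp upstream. At Mthfd1 the RefSeq promoter start lies 826 bp inside the record, and its 300 bases were covered to 13% in replicate 1 and 0% in replicate 2. The start of the Mthfd2 record is likewise not the RefSeq start, which lies 8407 bp inside it.

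Tdh, the mitochondrial threonine dehydrogenase, lies at chr14:63492347-63509092 on the minus strand of mm10. Peaks covered 56.9% of its TSS window in replicate 1 and 56.1% in replicate 2, which placed it at the 93.3rd percentile of all genes. Its record of 16746 bp was covered to 85.9% and 81.5%, or 83.7% ± 3.10. The mark lay mainly over the gene: the 20 kb downstream of the TSS were covered to 83.4% and 81.4%, and the 20 kb upstream to 30.3% and 30.7%. Merging replicated peaks less than 1 kb apart gave a joined domain of 18347 bp from 1250 to 19596 bp downstream, so it ran from just past the start through the end of the record. It measured 18216 bp in the replicate 1 list and 17835 bp in the replicate 2 list. Within it lay a single peak of 8251 bp, whose signal value of 11.7 placed it in the top 0.666% of the replicated list. Its summit, the point that the authors' caller marked in the peak, lay 11710 bp into the gene. Signal values and summits are the authors' own per peak. Peaks of the replicates covered 97.6% of this peak each.

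Gldc, the decarboxylase of the glycine cleavage system, lies at chr19:30098441-30175441 on the minus strand. Its TSS window was covered to 37.3% and 37.0%, with 22.9% and 21.1% upstream and 51.7% and 52.9% downstream. Coverage was lower further along the record of 77001 bp. Past the TSS window, the last 57000 bp of the record were covered to 13.3% and 10.3%, and the whole record to 23.3% and 21.4%. The strongest replicated peak, with a signal value of 8.81, had its summit 3969 bp into the gene. A peak of 363 bp stood at the promoter (the capitals above). The widest joined domain was 5421 bp in the replicated list, but replicate 1 joined 12293 bp across the TSS and replicate 2 joined 5298 bp elsewhere. Tdh and Gldc differed by 19.3 ± 0.387 percentage points in the TSS window and by 61.4 ± 1.76 in the record, Tdh being higher.

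Shmt2 and Shmt1 are serine hydroxymethyltransferases of the mitochondrion and the cytosol. Shmt2, at chr10:127517123-127522444 on the minus strand, had the highest coverage of the 9, at 78.7% and 73.9%, and ranked 134 of 21531 genes (99.4th percentile). Its short record of 5322 bp was covered to 91.1% and 93.0%. The upstream side was covered to 86.2% and 79.8%, and the downstream side to 71.3% and 68.1%. Joined peaks formed a domain of 35996 bp from 20762 bp upstream to 15233 bp downstream of the TSS, made of 16 replicated peaks and measuring 36004 and 33924 bp in the replicates. The gap around the TSS was 265 bp in the replicated list, 237 bp in replicate 1 and 611 bp in replicate 2, and further breaks of under 1 kb separated the other peaks of the domain. The strongest peak, with a signal value of 11.0 (top 1.14%), had its summit 11240 bp downstream, beyond the end of the record.

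The Shmt2 domain was shared with neighbours. The TSS of Nxph4 lies 12115 bp upstream and that of Ndufa4l2 13170 bp downstream, so both fall inside the domain. Their own TSS windows were covered to 72.6% and 54.3%. Peaks carry no link to a gene, and which gene a part of the domain belongs to was not tested. With the 2 kb around other TSSs left out of the window, Shmt2 had 77.7% and stayed above the 90th percentile. The rest of the domain stays in that window, so this does not tell which gene the domain belongs to.

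Shmt1, at chr11:60788897-60811265 on the minus strand, was the lowest of the 9, at 11.6% and 12.3% (46.7th percentile). Its record of 22369 bp was covered to 16.9% and 18.4%, with 4.28% and 4.01% upstream and 18.9% and 20.6% downstream. The replicated list held 3 peaks in the window. One of 500 bp had its summit 861 bp upstream and a signal value of 8.35. Another, of 3395 bp, had its summit 2231 bp downstream and a value of 7.89. The last, of 242 bp, had its summit 19057 bp upstream, next to the TSS of Dhrs7b 19366 bp away. Its widest joined domain, of 5032 bp, lay by that neighbour, 18982 to 24013 bp upstream and partly outside the window. The coverage of Shmt1 lay mostly close to its own start. With 5 kb windows it was 40.5% (72.3rd percentile), against a median of 21.1% over all genes. The strongest of its peaks was high in the list, in the top 6.47%. Shmt2 exceeded Shmt1 by 67.1 points in replicate 1 and 61.7 points in replicate 2, or 64.4 ± 3.87, in the TSS window, and by 74.4 ± 0.345 in the record. The size of this gap depended on the window. Shmt2 and Shmt1 had 86.5% and 40.5% with 5 kb windows, and 49.5% and 26.2% with 50 kb windows. Shmt1 was not the lowest of the 9 with these windows: Mthfd2 had 24.0% at 5 kb and Phgdh 8.31% at 50 kb.

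Mthfd1, the cytosolic trifunctional folate enzyme, lies at chr12:76254406-76319820 on the plus strand. Its TSS window was covered to 53.0% and 55.0% (92.0th percentile), with 38.4% and 38.6% upstream and 67.7% and 71.4% downstream. A joined domain of 16054 bp ran from 1939 to 17992 bp downstream, and was 16104 and 15880 bp in the replicates. The mark went on along the gene: 45414 bp of the record beyond the window were covered to 24.0% and 30.6%. The strongest peak, with a signal value of 8.47, had its summit 52465 bp into the gene. Tex21 has its TSS 7648 bp upstream.

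Mthfd2, the mitochondrial dehydrogenase and cyclohydrolase, lies at chr6:83305704-83326011 on the minus strand and had far less. Its TSS window was covered to 16.1% and 12.5%, and its record to 23.0% and 15.9%. Its strongest replicated peak, of 1670 bp, had a signal value of 5.49 (top 28.1%), the weakest such peak among the 9 genes. The summit of that peak lay 9427 bp into the record. Its widest joined domain, of 4337 bp, ran from 3285 bp upstream to 1051 bp downstream across the start of the record, and measured 6275 bp, elsewhere in the gene, in replicate 1 and 2517 bp, upstream, in replicate 2. The RefSeq start lies between the strongest peak and a smaller one at chr6:83317763-83318102, so the gap with peaks on either side appeared there too. The TSS of Mob1a, on the other strand, lies 23 bp from the start of the record, so the peaks around it cannot be assigned to either gene alone. Mthfd1 exceeded Mthfd2 by 36.9 and 42.5 points, or 39.7 ± 3.96, in the TSS window.

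**Figure D3:**
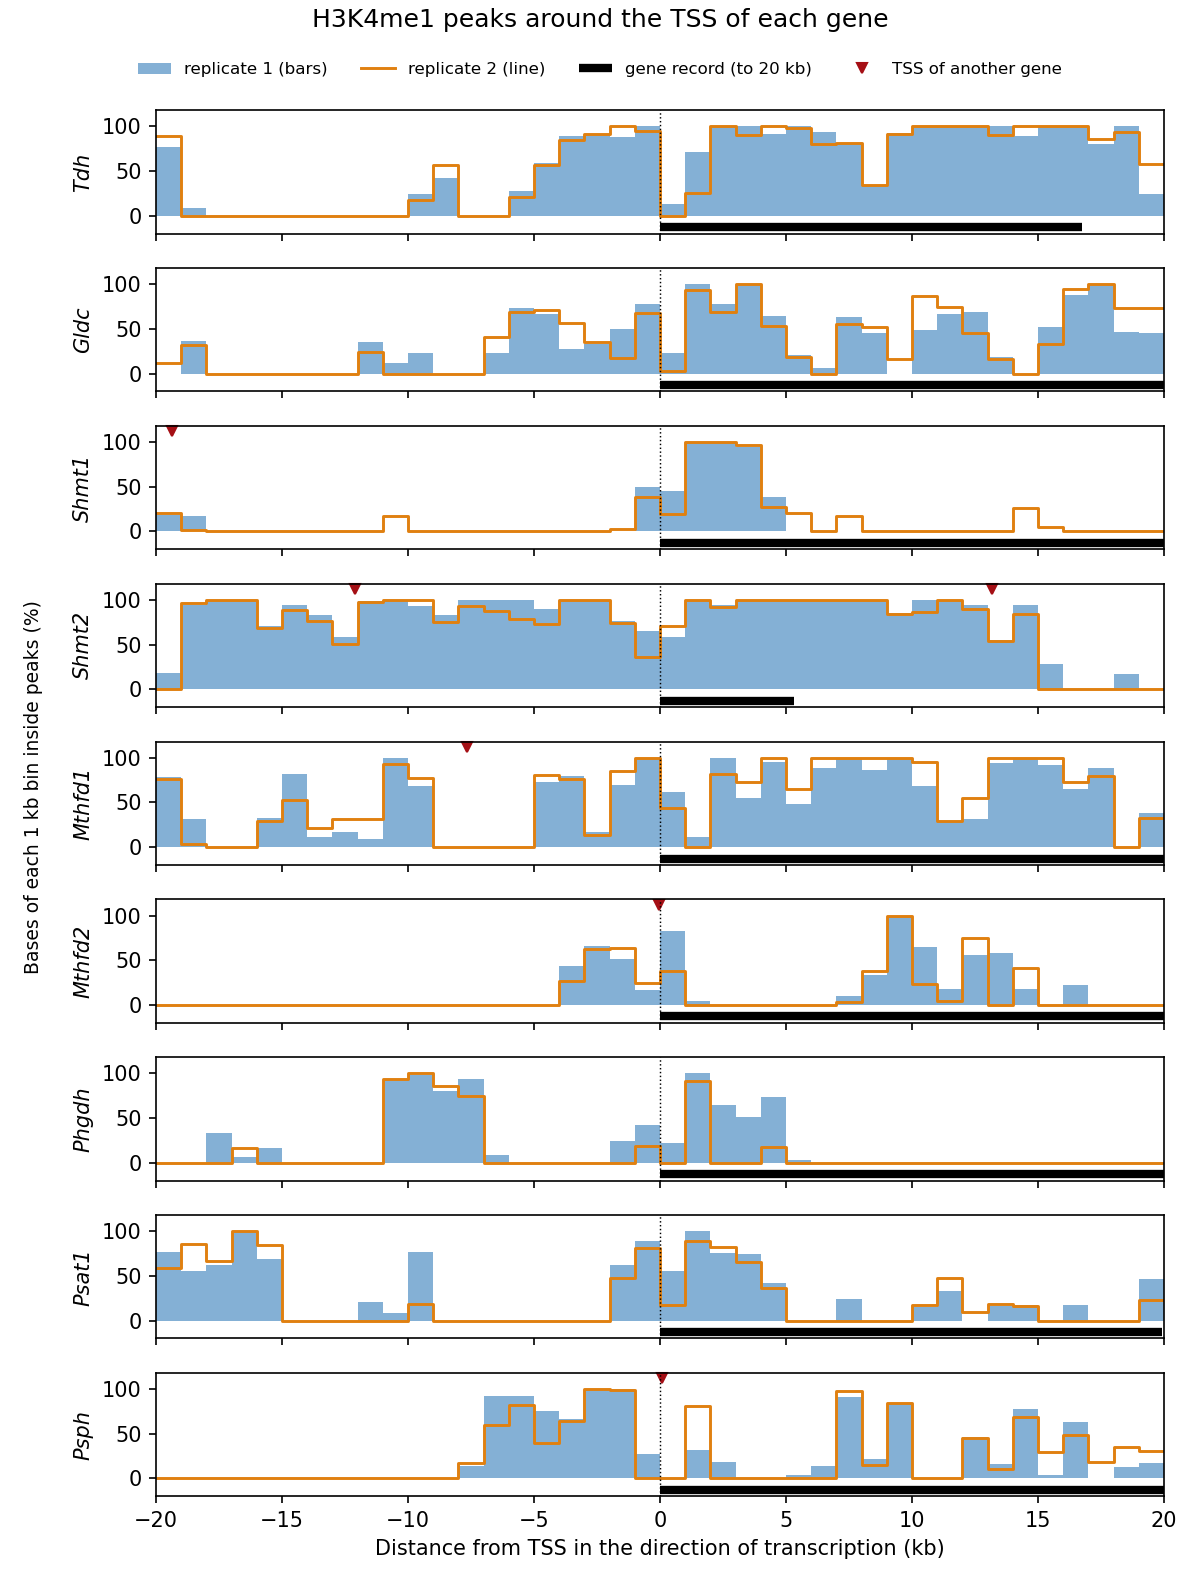
Percent of each 1 kb bin inside H3K4me1 peaks within 20 kb of the TSS of each gene, with transcription running to the right and the distance from the TSS in kb; filled bars show replicate 1, lines replicate 2, black bars the gene records and triangles the TSSs of other genes. Shmt2 is filled over most of the window, Tdh and Mthfd1 mainly downstream, and Shmt1 holds few peaks.

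The 3 genes of serine synthesis, Phgdh, Psat1 and Psph, had intermediate to low coverage. Phgdh, the dehydrogenase of the first step, lies at chr3:98313171-98339969 on the minus strand. Its TSS window was covered to 20.2% and 12.5%, and its record to 13.8% and 5.32%. This difference between replicates of 7.75 points was larger than that of 96.8% of all genes, and the replicates differed most downstream, at 15.7% and 5.44%. In replicate 1 joined peaks spanned 5565 bp over the TSS, while in replicate 2 the widest domain was 3920 bp and lay upstream. Both replicates shared peaks upstream and downstream. The strongest replicated peak, with a signal value of 9.17 (top 3.95%), had its summit 8243 bp before the TSS, inside a joined domain of 4086 bp. A peak of 1024 bp with its summit 1374 bp into the gene was covered to 100% and 89.0%.

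Psat1, the aminotransferase of the next step, lies at chr19:15905123-15925059 on the minus strand. Its TSS window was covered to 28.5% and 24.1%, and its record to 26.0% and 21.1%. A joined domain of 6129 bp ran from 1703 bp upstream to 4425 bp downstream across the TSS, and measured 6097 and 6115 bp in the replicates. Its strongest peak, of 2650 bp with a signal value of 9.16, had its summit far from the TSS, 16467 bp upstream.

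Psph, the phosphatase of the last step, lies at chr5:129765558-129787443 on the minus strand. Its TSS window was covered to 26.8% and 25.7%, and its record to 24.4% and 27.0%. The widest domain, of 6425 bp, lay wholly upstream, from 7173 to 749 bp before the TSS. The uncovered stretch around the TSS was the widest of the 7 genes that had one, at 1841 bp in replicate 1, 2053 bp in replicate 2 and 1789 bp in the replicated list. The TSS of Cct6a lies 87 bp downstream on the other strand, so the stretch holds both starts. It also holds the RefSeq start of Psph, 190 bp inside the record, before which the promoter sequence was taken. Seen from that start, Cct6a lies upstream. Psat1 and Psph did not differ beyond the spread of their replicates in the TSS window.

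Broad coverage was unevenly shared among the 9. Tdh, Shmt2 and Mthfd1 lay above the 90th percentile of TSS window coverage in both replicates, 3 of 9, against 8.9% of all genes. Shmt2 stayed above it under each of the other settings run, while Tdh was at the 88.7th percentile with the mm9 lists and the 78.3rd with 50 kb windows, and Mthfd1 at the 83.8th with the 50000 highest peaks and the 88.1st with 50 kb windows. For the record it was Tdh and Shmt2, 2 of 9, against 8.44%. Tdh, Shmt2 and Mthfd1 had a joined domain of 10 kb or more in the window, 3 of 9 against 20.8% of all genes. With so few genes these shares describe the set and were not tested. The replicated domains of the remaining 6 were between 4086 and 6425 bp, but the 10 kb separation did not hold with wider gaps. With gaps of up to 3 kb Gldc had a domain of 26890 bp, Psph 25730 bp, Shmt1 15478 bp and Psat1 10898 bp, beside 33614 bp at Tdh, 62824 bp at Shmt2 and 34939 bp at Mthfd1, and with gaps of up to 10 kb that of Shmt1 was the widest, at 155619 bp. In the replicate 1 list Gldc also passed 10 kb, at 12293 bp.

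The position of the strongest replicated peak in the TSS window or record differed too. At Shmt1, Phgdh and Psat1 it lay upstream of the TSS. At Tdh, Gldc, Mthfd1, Mthfd2 and Psph its summit lay inside the gene record, and at Shmt2 beyond the end of the record. Repeated sequence can hide peaks from short reads. Of 40 evenly spaced 32-mers per TSS window in the mm9 genome (27 at Psph), between 80% (Gldc) and 100% (Shmt2) occurred once, and Shmt1, with the lowest coverage, had 82.5%. Their part in the coverage was not tested.

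A wider list of 38 enzymes and carriers of the same pathway had a median TSS window coverage of 24.0% ± 0.783, near that of the 9 genes at 26.3% and above that of all genes at 13.8%. Of the 38, 26 lay above the all-gene median and 12 below, and 37 had a replicated peak within 2 kb, against 72.8% of all genes. Genes with such a peak had a median of 22.7%, close to that of the wider list. The 12 genes of serine, glycine and threonine metabolism had a median of 37.1% ± 1.43, with 10 above the all-gene median. The 18 folate genes had 15.8% ± 1.26, with 10 above, and the 8 genes of the methionine cycle 20.0% ± 3.31, with 6 above. The differences between these groups of genes were not tested.

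Single genes of the wider list spanned nearly the whole range. Tha1, a threonine aldolase, was covered to 92.0% and 91.0% of its TSS window, Fpgs, which adds glutamates to folate, to 62.9% and 59.3%, and Amt, the aminomethyltransferase of glycine cleavage, to 52.4% and 50.1%. Fpgs and Tha1 were the 2 of 38 above the 90th percentile in both replicates, against 8.9% of all genes, so by this measure the wider list held no larger share than the genome. By record coverage 4 of 38 passed that percentile, against 8.44%. A joined domain of 10 kb or more lay in the window of 13 of 38, against 20.8%. Lowest in TSS window coverage were Dld, the lipoamide dehydrogenase shared with other complexes, at 1.74% and 1.22%, Mthfs, at 1.09% and 2.07%, and Mat1a, the liver form of methionine adenosyltransferase, at 1.95% and 1.73%. Mat1a was the gene without a peak within 2 kb, its nearest being 13469 bp away. Gcat, the partner of Tdh, had 44.8% and 40.4%. Low coverage did not mean an unmarked start: Dld and Mthfs both had a replicated peak within 2 kb, at 515 and 645 bp.

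**Figure D4:**
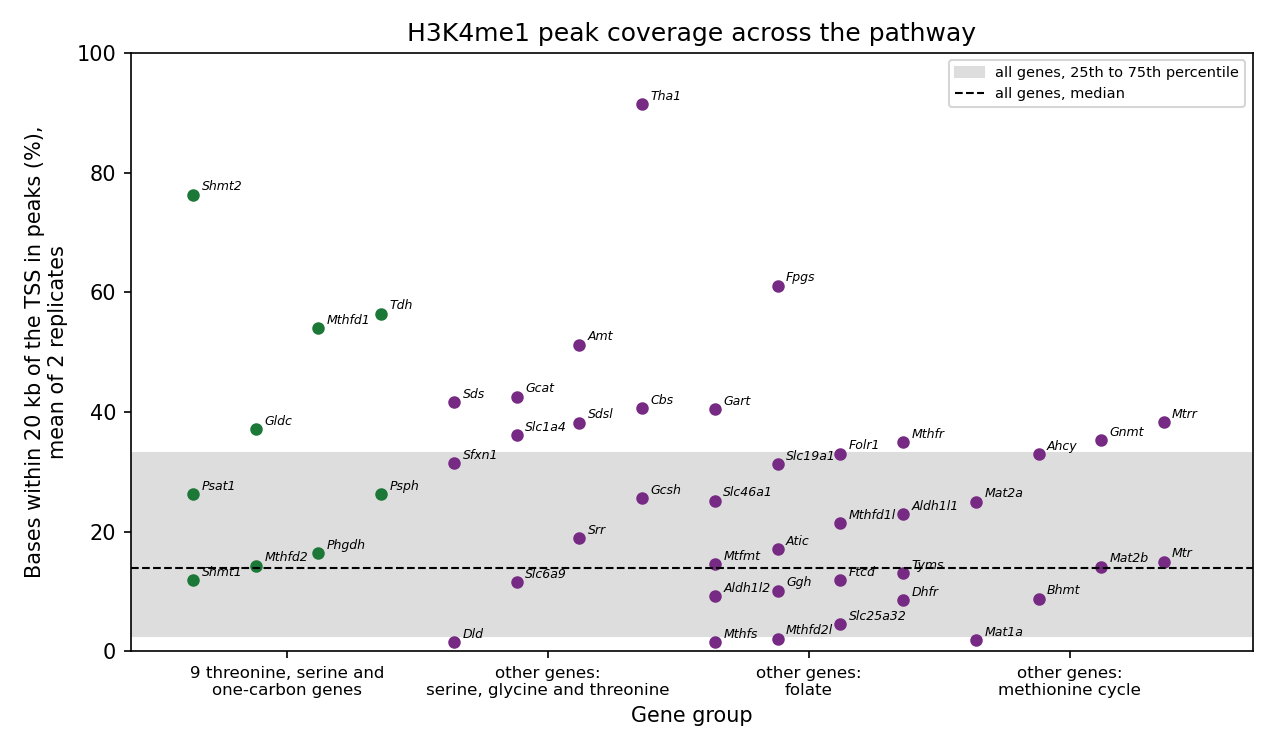
TSS window coverage (percent of bases, mean of 2 replicates) of the 9 genes and of the 38 genes of the wider list by role, each point a gene; the dashed line is the median of all genes, 13.8%, and the grey band their quartiles, 2.61% to 33.2%. Horizontal spread within a group has no meaning. Tha1 at 91.5% and Shmt2 at 76.3% stand highest, and Dld is lowest at 1.48%.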

How the data were processed

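H3K4me1 ChIP-seq peak lists of 2 biological replicates were analysed. Per the labels and deposited read-me lists, the authors deposited lists on mm10 for each replicate, the pooled replicates and the peaks kept as replicated, and lists on mm9. Each mm10 peak has the authors' signal value, −log10 p and −log10 q as deposited. For mm9 intervals, whole multiples of 200 bp, the authors deposited signal, p-value and q-value columns. Which aligner and which caller were used is not given in the sources used here. A source list deposited by the authors shows that replicate 2 also drew on 1 file that replicate 1 did not, and its part in differences between the replicates was not tested. The replicate lists held 313453 and 325226 peaks with median widths of 404 and 394 bp, and the replicated list 226060.

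Genes came from the RefSeq table of GRCm38.p6. Strands were taken from its promoter table for 17491 genes and from GENCODE vM1 by symbol for 3647 or by synonym for 393. The other 352 of 21883 genes were left out. The 5′ end of each record served as TSS. As a build check, a replicated mm10 peak stood within 2 kb of 72.8% of TSSs placed on GRCm38 and of 39.8% placed on NCBIM37. Coverage is the percent of bases inside peaks, per replicate, with mean and SD over the replicates. Tools were scipy 1.17.1, pandas 2.3.3, numpy 2.4.6 and matplotlib 3.10.9 under Python 3.11.15, and the code was tested on simulated intervals. No test between groups was possible.

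All 9 genes are named, with the strongest replicated peak, the widest domain joined over 1 kb gaps and neighbouring TSSs within 20 kb of each; of the wider list, the 3 highest, the 3 lowest and any without a promoter peak. Gcat was named for its role. The genes and lists were chosen with earlier results of these data known. Alternatives were each replicate alone, the replicated, pooled and mm9 lists, a −log10 q of at least 2, the 50000 highest peaks, windows of 5 and 50 kb, and windows without neighbouring TSSs. The RefSeq promoter start as TSS, and only genes with a strand by symbol, were added after seeing the data.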

Additional observations from a re-analysis of the deposited data

How the results depend on the processing

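The median TSS window coverage of the 9 genes, 26.3%, was 25.7% to 28.5% with single replicates, 29.2% with the replicated list, 31.99% with the pooled list, 10.4% with the 50000 highest peaks, 40.5% with the mm9 lists, 45.9% with 5 kb windows and 21.0% with 50 kb windows. The record median, 23.6%, was 21.4% to 24.4% with single replicates, 26.1% with the replicated list, 31.0% with the pooled list, 12.1% with the 50000 highest peaks and 44.5% with the mm9 lists. In each of these settings it lay above the all-gene median. The count of genes above the all-gene median ranged from 6 (without replicate 1) to 9 (5 kb windows). A promoter peak was found in 9 of 9 in each setting where such peaks were counted. They were not counted with the 50000 highest peaks, where the TSS window of Mthfd2 was covered to 0%. Shmt1 lay below the all-gene median in 9 of 12 settings and above it with 5 kb windows, 50 kb windows and the 50000 highest peaks. Mthfd2 lay below it in 4 settings and Phgdh in 3. In replicate 2 alone each was at 12.5%; Mthfd2 was also below with the replicated list, the 50000 highest peaks and windows without neighbouring TSSs, and Phgdh with the mm9 lists and 50 kb windows. The widest joined domains differed with the gap allowed, as given above. Mthfd1 was above Tdh with the pooled list, the mm9 lists, 50 kb windows and windows without neighbouring TSSs, and below it in the other settings. At 50 kb Tdh had 32.7% and Mthfd1 43.2%. No paired analysis was possible because the samples form 1 group. Read depth is unknown, so a stretch without a peak was not called rather than shown to lack the mark.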
